A study of Mus musculus with 48 samples.

Results

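The comparison of intermediate progenitor cells (IPC) with neural stem cells (NSC) collected at embryonic day E15 was examined in a massively parallel reporter assay of mouse somatosensory cortex. It covered the 11311 designed DNA elements, of 11709 in all, that had a deposited activity value in both cell types at that age. They were 3015 elements of the class named NSC, 2905 of the class named IPC, 2614 of the class named Mature, 916 of the class named E14, 884 of the class named Shadow and 977 scrambled control sequences. A further 379 elements other than controls lacked a value in at least one of the cell types and were left out. What the class names and the asc, desc and unc labels of the NSC, IPC and Mature classes stand for was not given in the sources used here, and they are used below as names only. The E14 class, whose elements are named by their genomic position, is distinct from the age E14.

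Embryos of the strain C57BL/6JRj (Haplotype H2b) were electroporated in utero with the reporter library at E14 and their somatosensory cortices were collected 24 h later, at E15. Dissociated cells were fixed, permeabilised and stained for Pax6, Eomes (Tbr2) and Tubb3, and Pax6+ cells were sorted as NSC and Tbr2+ cells as IPC. At E15 each cell type had 3 biological samples, and every sample gave one library of DNA and one of RNA, which made 12 of the 48 libraries of a series running from E13 to E17. The deposited table holds 1 value for an element in NSC at E15 and 1 in IPC. Variation among the embryos is therefore not seen, no test between cell types was made, and whether NSC and IPC came from the same embryos was not stated. The assay reports reporter RNA only, so the sort could not be checked against marker genes of either cell type. The number of reads or barcodes behind a value is unknown, and no counting interval is given.

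Neural stem cells of the embryonic cortex, the radial glia, line the ventricle, carry the transcription factor Pax6 and divide to renew themselves and to produce neurons. Many of those neurons arise through intermediate progenitors, which carry Tbr2, leave the ventricular surface and divide once or a few times more before they give rise to glutamatergic neurons. Enhancers are stretches of DNA that raise transcription of a gene in the cells where the right transcription factors are present. A reporter assay places each candidate on a plasmid, so that it measures what the sequence does outside its place in the genome.

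The sequence of an element could be read where it overlapped the promoter window of a protein-coding gene in RefSeq (GRCm38.p6, 250 bases before to 50 after a gene's start), which was so for 10 of the 916 E14-class elements at a minimum overlap of 60 bases. The stretches of 3 are printed 5′ to 3′ on the strand of the gene. They were picked after their values were seen, as the one element of the 10 above the upper limit described below (as were 2.87% of all elements other than controls), the one past the authors' adjusted p of 0.05 in both cell types, and the one with the difference farthest towards NSC. Capitals mark CANNTG, the E-box, the letters recognised by basic helix-loop-helix factors such as those of the Neurog and Neurod families. The motif reads the same pattern on both strands.
Calr4, chr4:109235058-109235311, plus strand: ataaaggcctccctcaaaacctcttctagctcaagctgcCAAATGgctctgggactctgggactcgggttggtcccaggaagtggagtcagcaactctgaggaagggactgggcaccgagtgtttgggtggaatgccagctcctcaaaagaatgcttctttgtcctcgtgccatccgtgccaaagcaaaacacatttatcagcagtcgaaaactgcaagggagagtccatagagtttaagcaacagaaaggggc
Arvcf, chr16:18380561-18380825, plus strand: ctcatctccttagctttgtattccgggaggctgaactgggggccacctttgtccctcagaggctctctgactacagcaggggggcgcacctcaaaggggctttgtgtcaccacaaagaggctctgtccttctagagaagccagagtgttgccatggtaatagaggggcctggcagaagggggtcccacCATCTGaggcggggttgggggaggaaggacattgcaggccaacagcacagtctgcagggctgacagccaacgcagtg
Sox6, chr7:116038695-116038910, minus strand: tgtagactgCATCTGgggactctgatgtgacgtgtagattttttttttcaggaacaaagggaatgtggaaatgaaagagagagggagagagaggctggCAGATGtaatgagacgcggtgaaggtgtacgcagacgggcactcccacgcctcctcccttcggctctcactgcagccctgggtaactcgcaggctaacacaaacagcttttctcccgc
The Calr4 stretch held 1 such motif, the Arvcf stretch 1 and the Sox6 stretch 2. Among the 21262 promoter windows of protein-coding genes, 62.9%, 64.7% and 56.4% held the motif in the stretch at the same place and of the same length as those of Calr4, Arvcf and Sox6, and 69.0% held it somewhere in the 300 bases. The motif was therefore common at promoters, and of the 10 elements 4 held it (Sox6, Arvcf, Rab17 and Calr4).

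Activity was taken as log2 of the element's value divided by the median of the scrambled controls of its column, after addition of a pseudocount of 0.1, minus the mean of the controls on that scale, so that 0 is the level of scrambled DNA. The difference is the activity in IPC minus that in NSC. On this scale the element at the promoter of Calr4, a calreticulin family gene, stood at -0.28 in NSC and 2.69 in IPC. The element at the promoter of Arvcf, an armadillo protein of the catenin family, stood at 1.27 in NSC and 1.79 in IPC. Both values were above the mean of the controls but inside their upper limits of 1.93 and 2.33. The authors' adjusted p was under 0.05 in both cell types for 2.39% of elements other than controls and 0.92% of controls. The element at the promoter of Sox6, a SoxD transcription factor, stood at 0.85 in NSC and -0.34 in IPC. The remaining 7 promoter elements had differences from -0.38 (Prelp) to 1.39 (Apbb1). At the other 4 ages the Calr4 difference of 2.97 was 1.77 at E13, 0.13 at E14, -1.44 at E16 and 0.16 at E17.

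Elements of the NSC class were more active in NSC than in IPC at E15. Their mean activity was 0.27 in NSC (SD 1.04 over 3015 elements) and 0.025 in IPC (SD 1.07), a difference of -0.25 with a 95% interval over elements of -0.30 to -0.20. In IPC they thus stood at the level of scrambled DNA. The difference was above 0 in 41.4% of them, against 49.0% of the scrambled controls. The shift was seen at each percentile read and was smallest at the highest. The offset of the class percentiles from those of the scrambled controls was -0.27 at the 10th, -0.29 at the 25th, -0.24 at the median, -0.24 at the 75th and -0.14 at the 90th percentile. At the 90th it was -0.18 for the asc, 0.02 for the desc and -0.27 for the unc elements of the class.

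Elements of the IPC class were above scrambled DNA in both cell types, at 0.15 in NSC and 0.20 in IPC, and their difference of 0.058 (0.006 to 0.110) was small. Their upper tail lay further out in IPC, with a 90th percentile of 1.67 against 1.31 in NSC, while their medians were 0.13 and 0.15. Elements of the Mature class were near scrambled DNA in both, at -0.019 in NSC and 0.067 in IPC, with a difference of 0.086 (0.029 to 0.143). The scrambled controls themselves had a mean difference of 0.010 with an interval of -0.074 to 0.094. Once their error was included, the IPC class exceeded the controls by 0.048 (-0.051 to 0.146) and the Mature class by 0.076 (-0.025 to 0.177), so neither stood apart from scrambled DNA, whereas the NSC class lay below it by an offset of -0.26 (-0.36 to -0.16). These intervals cover the sampling of elements only and leave out the spread between embryos.

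The order of the NSC and IPC classes turned over between the cell types. In NSC the NSC class was higher than the IPC class by 0.13, and in IPC it was lower, with a gap of -0.18, so that the gap changed by -0.31 (-0.38 to -0.23). The centring on the scrambled controls cancels in this value, while the pseudocount, which is set relative to their median, does not, and with a pseudocount of 1 it was -0.19. The same change was -0.23 at E13, -0.34 at E14, -0.30 at E16 and -0.40 at E17, and E15 lay within that range. For the NSC class alone the difference was -0.042 at E13 and between -0.26 and -0.19 at the later ages, with -0.25 at E15. The IPC class had differences of 0.19 at E13, 0.082 at E14, 0.066 at E16 and 0.21 at E17, each above its 0.058 at E15.

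Elements of the E14 class had the highest mean activities of any class in both cell types at E15, 0.30 in NSC and 0.34 in IPC (SD 0.99 and 1.16 over 916 elements). In NSC this was within error of the NSC class, whose interval of 0.24 to 0.31 overlapped its 0.24 to 0.37. Their difference was 0.041 (-0.051 to 0.133), with a median of 0.12. Shadow elements, which carry the positions of the E14 class in their names, stood at 0.012 and 0.005. In the 814 pairs of an E14-class element and its Shadow counterpart, the E14-class element was higher by 0.31 ± 0.047 (SE) in NSC and by 0.34 ± 0.056 in IPC, and was the higher of the pair in 60.9% and 59.6% of pairs. The mean difference between cell types was the same within its error for the E14-class and Shadow members of the pairs (0.026 ± 0.067, E14 class minus Shadow). Pair by pair those differences were nearly unrelated, with a Spearman correlation of 0.030. The activity of an element said little about that of its counterpart, with a Spearman correlation of 0.047 in NSC and 0.003 in IPC across the 814 pairs. Of the E14-class elements 56.9% lay within a protein-coding gene, and these had a mean difference of 0.075 ± 0.059 (SE, n = 521) against -0.003 ± 0.076 (n = 395) for those outside.

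The asc and desc labels separated little at E15. In the NSC class, the difference between cell types was -0.28 for the 1104 asc elements, -0.20 for the 1034 desc elements and -0.27 for the 877 unc elements. In the IPC class it was 0.016 for asc, 0.095 for desc and 0.047 for unc elements. In the Mature class it was 0.053, 0.109 and 0.073. The asc minus desc value was below 0 in each class, at -0.075 (-0.197 to 0.046) in the NSC class, -0.079 (-0.214 to 0.057) in the IPC class and -0.056 (-0.258 to 0.147) in the Mature class, and each interval included 0.

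Single elements were read against a lower and an upper limit, each exceeded outwards by 2.5% of the controls. For the difference these were -2.59 and 2.84, ratios of 0.166 and 7.15, because the controls themselves varied widely between the cell types (SD 1.34). Of the 10334 elements other than controls, 2.87% were above the upper limit and 3.57% below the lower, close to the 2.56% of controls that the limits leave. In the NSC class 59 elements (1.96%, Wilson 95% interval 1.52 to 2.52%) were above and 141 (4.68%, 3.98 to 5.49%) below. In the IPC class 92 were above and 79 below, in the Mature class 101 and 89, and in the Shadow class 24 and 27. In the E14 class 21 elements (2.29%, 1.50 to 3.48%) were above and 33 (3.60%, 2.58 to 5.02%) below, shares near the background. With the authors' MAD scores these counts were 33 and 35. At the other ages the share of E14-class elements above the upper limit was 6.20% at E13, 6.37% at E14, 5.21% at E16 and 5.76% at E17, beside a background of 3.63%, 3.83%, 4.54% and 4.6% of all elements other than controls. E15 was the age with the lowest such share of the E14 class and the lowest background.

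Activity within a cell type was read the same way. Above the upper control limit, which was 3.81-fold in NSC and 5.04-fold in IPC on this scale, lay 4.43% of the elements in NSC and 3.73% in IPC. Above it in both were 48 elements (0.46%), beside 0.20% of the controls. The NSC class had 161 elements (5.34%, 4.59 to 6.20%) above it in NSC and 82 (2.72%, 2.20 to 3.36%) in IPC. The E14 class had 46 (5.02%) in NSC and 49 (5.35%) in IPC, of which 5 (0.55% of the class) were shared. By the authors' deposited adjusted p under 0.05, which rests on the controls' median and median absolute deviation, 12.5% of the elements were active in NSC and 14.9% in IPC, but so were 7.78% and 11.2% of the scrambled controls. In the E14 class these shares were 15.6% (13.4 to 18.1%) in NSC and 23.3% (20.6 to 26.1%) in IPC, and in the Shadow class 9.62% and 10.9%. The NSC class went the other way, with 457 elements (15.2%) in NSC and 363 in IPC, while the IPC class had 337 (11.6%) in NSC and 494 in IPC. Across elements the activities in the cell types were only weakly related, with a Spearman correlation of 0.14 over the 916 E14-class elements, 0.13 over the 3015 NSC-class elements and 0.061 over the 977 controls, whose values come from the same libraries.

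The E14-class elements named next are the 10 with the largest difference in either direction among those beyond the limit and active in the cell type where they were higher, of 13 such elements towards IPC and 18 towards NSC. They were ranked on the values given here, so these sizes are a description of the extremes. Genes are those of the RefSeq table, elements outside genes are named by the nearest gene body, and exon or intron was not analysed here.

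Towards IPC, the largest difference was that of an element within Ptk2, which encodes focal adhesion kinase (chr15:73360346-73360611). Its activity was -1.41 in NSC against 3.42 in IPC, which gives 4.83. An element 239.61 kb from B3gat1, an enzyme that makes the HNK-1 carbohydrate of neural cells, stood at -1.79 and 2.94. One 0.24 kb from Il31ra, a cytokine receptor subunit (chr13:112580975-112581240), stood at -1.30 and 3.18. In all 3, NSC was below the mean of the controls and IPC far above it. Of these 3, only the B3gat1 element was past the lower limit of the controls in NSC, -1.61. The Zeb1 element named below was past it too, at -1.81. One 0.64 kb from Lamp5, a lysosome-associated membrane protein of neurons (chr2:136051124-136051389), differed from these in standing near scrambled DNA in NSC, at 0.15, and at 4.35 in IPC. The element within Cyria, a Rac1-binding protein (chr12:12274163-12274428), stood at 0.52 and 3.58, the only NSC value of the 10 above that of Lamp5. The other 5 lay within Igsf21 and Zfp800, and nearest to Zeb1, Nedd1 and Creb3l1, with differences of 3.24 to 4.45. With limits drawn within 3 bands of mean activity, those at Cyria, Igsf21, Zfp800 and Creb3l1 were inside the limits and the other 6 beyond them.

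Towards NSC, an element 215.64 kb from Cadm1, a cell adhesion molecule (chr9:47314266-47314531), was at 3.20 in NSC against -2.20 in IPC, which gives -5.40. One within Cep112, a centrosomal protein gene, stood at 3.12 and -2.00. One 0.13 kb from Dcakd, a gene named for its dephospho-CoA kinase domain (chr11:102993656-102993921), stood at 3.60 and -0.70, and one within Arhgef28, a guanine nucleotide exchange factor gene (chr13:98025363-98025628), at 4.52 and 0.36. That last value was the highest NSC activity among the 10, and there the element was not below scrambled DNA in IPC. The other 6, nearest to Ube2cbp, Mrpl39, Tanc1 and Dok5 and within Dcdc5 and Cdc14a, had differences from -4.97 to -3.65.

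The signs of these differences at the other ages were mixed. Of the 10 towards IPC, none had the same sign at all 4 other ages and 6 at 3 of them. The Ptk2 difference was 1.34 at E13, 3.54 at E14, -2.57 at E16 and 7.18 at E17, and that of Cyria 2.22, 4.58, 2.09 and -2.13. The element near Creb3l1, a transcription factor gene of the CREB3 family, had 3.24 at E15 and 3.13 and 2.24 at E16 and E17, after 0.83 and -0.50 at E13 and E14. That within Zfp800 had the opposite sign wherever it was measured, with -0.75, -1.56 and -4.05 at E13, E14 and E17. The Lamp5 difference was 0.43, -3.18, -0.67 and 0.34 at E13, E14, E16 and E17. Its activity in NSC was 3.65 at E13 and 3.39 at E14. Of the 10 towards NSC, 4 kept their sign at 3 of the ages and 1 at all 4, that near Dcakd, with -0.50, -0.50, -3.65 and -3.72. The Cadm1 element had 1.13, 1.41, 2.67 and -1.30, the opposite sign at 3 of the 4 ages. Over all elements other than controls that were above the limit and active in IPC at E15, 326 of 663 values at the other ages (49.2%) had the same sign, and of those below the limit and active in NSC, 427 of 775 (55.1%). Scrambled controls picked the same way had 27 of 51 (52.9%) and 20 of 40, and E14-class elements 58.8% of 51 values and 54.3% of 70. An element gave up to 4 of these values, which are not independent. Without picking, the shares by age were 47.5 to 53.1% towards IPC and 46.9 to 52.5% towards NSC over all elements other than controls. In the whole E14 class they were 51.4 to 54.7% and 45.3 to 48.6%.

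Single elements of the other classes also varied from age to age. Those named here were picked, after their values were seen, from the 3 largest and 3 smallest differences of the NSC, IPC and Mature classes. The element numbered 101 of the NSC class was at 5.18 in NSC against -2.42 in IPC, which gives -7.60, and repeated at E16 with -7.81 but had -1.66, 2.75 and 0.26 at E13, E14 and E17. Number 714 of that class had 5.18 at E15, beside -8.84, 2.94, -0.86 and 4.30 at E13, E14, E16 and E17. Number 1188 of the IPC class had the largest difference of that class, 7.96, from -2.26 in NSC and 5.70 in IPC. At E14, E16 and E17 its difference was -9.24, 4.36 and -0.72. Number 1496 of that class had -8.30 at E15, beside 1.24, -5.91 and 4.53 at E14, E16 and E17. Number 751 of that class, with 7.20 at E15, kept its sign where it was measured, with 2.10, 1.58 and 0.55 at E14, E16 and E17, and so did number 1148, with 7.07 at E15 and 1.64 and 1.89 at E14 and E17. In the Mature class, number 62 had 7.99, beside 0.37 at E14 and -2.11 at E17, and number 169 had 6.94, with the same sign at each other age (0.012, 0.036, 2.04 and 2.06).

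Elements active in both cell types (0.46%) were fewer than those active in NSC alone (3.97%) or in IPC alone (3.26%). The scrambled controls had the same order, with 0.20%, 2.35% and 2.35%. The E14-class element with the highest mean of both lay 63.79 kb from Hes1, a repressor that mediates Notch signalling in neural stem cells (chr16:30001301-30001566), at 2.73 in NSC and 3.61 in IPC. An element within Dusp10, a phosphatase of stress kinases, stood at 2.82 and 2.71. One 3.51 kb from Nhlh1, a basic helix-loop-helix factor of young neurons, stood at 2.33 and 2.56, and ones within Rabgap1l and Gadd45gip1 at 2.61 and 2.08 and at 2.06 and 2.41. These 5 stood above the activity limit in NSC, and all but that within Rabgap1l in IPC too. Elements 495.77 kb from Sox11, within Nfia and within Cacna1s stood higher in IPC, at 3.66, 3.60 and 3.53, than in NSC, at 1.81, 1.54 and 1.59, with differences inside the limits. All these elements were ranked on the E15 values shown. At E13, E14, E16 and E17 the Hes1 element stood at 2.33, 2.95, -1.16 and -0.28 in NSC and 1.38, -0.29, 0.19 and 2.18 in IPC. That within Dusp10 stood at -0.65, 2.44, 2.55 and 1.29 in NSC and 1.87, 1.33, 2.17 and 1.04 in IPC.

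A different picture came from elements picked on the other ages and read at E15. They had the same sign of difference at E13, E14, E16 and E17, and a mean difference over those ages beyond that of the controls (-1.48 or 1.47). This rule was added after the data were seen, and the values at E15 took no part in it. Of 51 E14-class elements so picked as higher in IPC, 45 (88.2%, Wilson 95% interval 76.6 to 94.5%) were higher in IPC at E15 too, against 53.1% of all E14-class elements. Their median activity was 0.60 in NSC and 1.41 in IPC, and their median difference 0.89. None was beyond the E15 limit of 2.84. Of 90 IPC-class elements picked as higher in IPC, 63 (70.0%, 59.9 to 78.5%) kept that direction, against 51.0% of the class, with a median of 0.46. In the NSC, Mature and Shadow classes it was 12 of 30, 15 of 32 and 13 of 27, and in the scrambled controls 5 of 11.

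Picked as higher in NSC, 15 of 22 E14-class elements (68.2%, 47.3 to 83.6%) were higher in NSC at E15, against 46.9% of the class, with a median difference of -0.77, and 3 were beyond the E15 limit. Of 104 NSC-class elements it was 58 (55.8%), no more than the 58.8% of that class as a whole. In the IPC and Mature classes 17 of 36 and 23 of 45 kept the direction, in the Shadow class 10 of 11, and in the controls 7 of 12. The E14-class elements that leaned to IPC at the other ages thus leaned to IPC at E15 as a set, with none of them above the upper control limit.

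Of the 8 E14-class elements with the largest mean difference towards IPC over the other ages, 6 were higher in IPC at E15. They were those within Mmp24 (0.58), Ccdc13 (0.62), Cacna1s (1.94), Fbrsl1 (1.77) and Slc39a11 (1.32) and that 75.73 kb from Dusp4 (0.98). The elements near Srrm4, a splicing factor of neurons, and within Chst8 went the other way, with -2.85, beyond the lower limit, and -1.24. For Srrm4 the activities at E15 were 0.82 in NSC against -2.03 in IPC, and the differences were 1.80, 1.68, 6.64 and 4.21 at E13, E14, E16 and E17. Of the 8 towards NSC, 5 were higher in NSC at E15, within Gabrb1 (-2.98), Tenm3 (-1.45) and Dlgap2 (-0.81) and near Ercc6l2 (-1.39) and Foxd3 (-0.13). The element within Gabrb1, a subunit of the GABA-A receptor (chr5:71733007-71733272), was beyond the limit at E15, and its difference was -3.64, -2.12, -3.37 and -0.52 at the other ages. The elements near Nr2e1 and within Zc3h12c and Nfia stood at 0.20, 0.30 and 2.06.

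E14-class elements at genes of the 2 progenitor types and of neurons were read as lists. Of all 916 E14-class elements 52.9% were higher in IPC. At 10 of 36 intermediate progenitor genes there were 16 elements, of which 13 were higher in IPC and 3 in NSC, with a median difference of 0.30 beside 0.12 for the whole class, and none beyond a limit. Of the 13, 4 had differences between 0.04 and 0.17. The element 1.74 kb from Eomes, the gene of Tbr2 itself (chr9:118476184-118476449), stood at 0.03 in NSC and 0.84 in IPC. One 4.60 kb from Mfng, a glycosyltransferase that modifies Notch (chr15:78751017-78751282), stood at 0.34 and 1.62. One 0.25 kb from Lzts1, a regulator of the departure of progenitors from the ventricle, went the other way, with 1.83 in NSC and -0.61 in IPC. The 4 elements nearest to Pou3f3, a POU factor, ran from -1.34 to 0.55.

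At 21 of 50 neural stem cell genes there were 37 elements, of which 23 were higher in IPC and 14 in NSC, with a median difference of 0.23. The one beyond a limit lay 42.92 kb from Hopx, a gene of radial glia (chr5:77158048-77158313), with 1.92 in NSC and -1.76 in IPC. It stood just under the activity limit of 1.93 in NSC. Its difference was 0.78, -2.73, 1.97 and -2.01 at E13, E14, E16 and E17. All the others lay inside the limits. The elements 2.04 and 20.51 kb from Sox21 had differences of -2.43 and -2.03, that near Sox1 -1.71, and the 3 near Sox2 -1.33, -0.96 and 1.33. The element near Hes1 had 0.88 and that near Hes5, a related repressor, 1.68. The 5 elements within Pax6, the gene that defines the NSC sort, had differences of -0.70, 0.02, 0.48, 0.53 and 2.08, and the last stood at 0.37 in NSC and 2.45 in IPC. The 4 at Nfia ran from -0.92 to 2.06. An element 2.44 kb from Emx1, a cortical homeobox gene, had the highest difference of the list, 2.36, from -0.30 and 2.06.

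At 16 of 50 genes of neurons and cortical layers there were 24 elements, with 14 higher in IPC and 10 in NSC and a median difference of 0.15. Beyond the lower limit were those within Gabrb1 and 184.56 kb from Gria2, an AMPA receptor subunit, the latter with 3.34 in NSC and 0.55 in IPC. At the other end stood Robo2, an axon guidance receptor, with 0.09 and 2.82 for one element and 0.50 and 0.64 for another. Elements higher in IPC at all 5 ages were also on this list. That 7.93 kb from Neurod2, a neuronal basic helix-loop-helix factor (chr11:98317219-98317484), had differences of 1.42, 1.96, 1.46, 1.23 and 1.06 from E13 to E17, with 0.73 in NSC and 2.20 in IPC at E15. That within Cacna2d1, a calcium channel subunit, had 1.81, 0.94, 1.99, 4.03 and 2.19. Both elements at Sox11, a factor of newborn neurons, were higher in IPC at each age, with 2.58, 2.22, 1.86, 0.17 and 0.67 for that 495.77 kb away and 0.07, 1.95, 1.36, 3.42 and 2.81 for that 326.91 kb away, and so was one within Dpysl5, with 4.27, 2.75, 1.95, 0.17 and 1.58. A second Neurod2 element, 6.63 kb away, stood at 0.09 at E15. The 5 elements higher in IPC at all 5 ages were picked out after their values were seen. None of them was beyond the E15 limit. An element 296.6 kb from Nfia, on the stem cell list, was also higher in IPC at each age, with 0.22, 0.81, 0.23, 2.13 and 0.31. Of the 889 E14-class elements with values at every age, at least 45 were so, those of the 51 described above. The full share was not counted. Of 22 genes of other cell types, Olig2, a factor of oligodendrocyte precursors, had an element, which stood at 2.08 in NSC and -0.48 in IPC.

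Elements above the activity limit at E15 were also read at the other ages. The 49 E14-class elements above the activity limit in IPC at E15 had medians between 0.65 and 1.29 in IPC at the 4 other ages, where the medians of the whole class ran from -0.071 to 0.39. Above the limit in IPC again were 15 of 49 (30.6%) at E13 and 22 of 49 (44.9%) at E14, beside 11.4% and 15.1% of the class, but 2 of 46 (4.35%) at E16 and 4 of 49 (8.16%) at E17, beside 7.21% and 10.3%. The background over all elements other than controls was 5.27%, 5.85%, 4.6% and 6.84% at these ages. For all elements other than controls that were active in IPC at E15, the median in IPC was 0.14, 0.11 and 0.38 at E13, E14 and E16, above the -0.18, 0.091 and 0.055 of all elements, and at E17 it was -0.19, below the 0.15 of all elements. The 46 above the limit in NSC at E15 had medians of 0.10 to 0.45 in NSC at the other ages, beside 0.10 to 0.25 for the whole class. Across the E14 class, activity in IPC at E15 had a Spearman correlation of 0.35 with IPC at E13, 0.32 at E14, 0.14 at E16 and 0.27 at E17, and activity in NSC 0.17, 0.18, 0.083 and 0.14. For the difference between cell types the correlation was 0.19, 0.21, 0.10 and 0.18. Over the scrambled controls the correlation in IPC was 0.18 with E13, 0.10 with E14, 0.051 with E16 and 0.079 with E17. Part of the relation in IPC was thus also present in scrambled DNA. These correlations describe elements measured in shared libraries and carry no test.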

How the data were processed

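Reporter DNA and RNA were measured in the 12 libraries behind NSC and IPC at E15, grouped by the labels. The submitters' processing notes name cutadapt, without a version, and the build mm10. For the aligner, barcode counting and activity tool, the sources used here give nothing. The authors deposited, per cell type and age, an activity score named statistic (linear, never negative, unit unstated), a MAD score, and a p-value. As checked from the values, the MAD score is the distance of the statistic from the scrambled median in scaled median absolute deviations, and the p-value is its upper-tail normal p after Benjamini-Hochberg adjustment. Each combines the biological samples, so no test was made, the spread between replicates is not seen and depth is unknown.

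The statistic over its column's scrambled median (0.282 in NSC, 0.556 in IPC) was formed, 0.1 was added, log2 was taken and the scrambled mean was subtracted. The 0.1 understates differences of weak elements. 44 values in NSC and 58 in IPC had a ratio below it. Limits leave 2.5% of the 977 controls on either side, class intervals are 95% normal intervals of the mean over elements, and shares have 95% Wilson intervals; both leave out the spread between embryos. Positions are those in the element names, whose end minus start is 265; the start was read as counted from 0, so that printed stretches could be off by 1 base. E14-class elements were placed on RefSeq genes of GRCm38.p6. Named elements are the 10 largest and 10 smallest differences of the E14 class beyond a limit and active in the higher cell type. Also named are the 10 highest means, elements at the gene lists, and part of the 3 extremes in either direction of other classes. The 8 in either direction by their mean over the other ages were added later. The members, gene lists and rules were chosen with earlier results of these data known. Python 3.11.15, pandas 2.3.3 and scipy 1.17.1 were used, and the limits were tested on simulated data. Alternatives covered the pseudocount, the centring, the summary, low values, missing values, the scale and the limits.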

Additional observations from a re-analysis of the deposited data

How the results depend on the processing

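Of 79 recomputed values of the class differences, the gap, the label differences and the counts, 69 were counted as unchanged. For a difference this meant a value within the half-width of the main interval. Where its interval was recomputed, whether that excluded 0 also had to stay the same. On the MAD scale only the interval's relation to 0 was compared, and counts had to stay within the 1.5-fold range. No difference whose interval excluded 0 changed sign. The Shadow-class difference, whose interval included 0, went from -0.007 to 0.013 with centring on the scrambled median, 0.006 without low elements, 0.002 with elements measured in all 10 columns and 0.102 on the MAD scale. With a pseudocount of 1 the NSC-class difference was -0.15 and the change of the gap -0.19; its construction shrinks every log2 difference. The IPC-class difference no longer had an interval off 0 with each column divided by its scrambled SD (0.043, an alternative added after seeing the data) or with the authors' MAD scores (0.083 on that scale); the cause was not tested. Limits that leave 1% of the controls gave 119 elements towards IPC and 183 towards NSC, and 233 active in NSC and 172 in IPC. The authors' adjusted p gave 1287 and 1542 active. With limits drawn within 3 bands of mean activity, 6 of the 10 named elements towards IPC and 10 of the 10 towards NSC were still beyond them, and with pseudocounts of 0.01 and 1 all 10 in either direction were. The MAD scores put 33 E14-class elements above the limit, against 21. No paired analysis was possible because the deposited table combines the biological samples, and leaving out single replicates could not be run for the same reason. Values of single elements rest on 1 pooled number in each cell type, and scrambled controls varied by an SD of 1.34 in the difference.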
